A study of Mus musculus with 12 samples.

Results

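Cathepsins and legumain are the proteases that digest protein inside endosomes and lysosomes. The genes described here are cathepsin E (Ctse), cathepsin D (Ctsd), cathepsins B, C, H, L, S and Z (Ctsb, Ctsc, Ctsh, Ctsl, Ctss, Ctsz) and legumain (Lgmn), 9 of the 9842 genes in the deposited expression table. They were chosen by name as lysosomal or endosomal proteases present in that table, and their choice was made with results of these data known, among them the higher Ctse in cells without LSD1. All 9 passed the filter on low values, and 9807 genes were tested in all.

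The B cells sequenced came from C57BL/6J females that had LSD1 (WT) or lacked it (KO). LSD1 is a histone demethylase encoded by Kdm1a, and the labels give no Cre driver or deletion stage for the knockout. Transitional B cells (TrB) were taken from the spleen and sorted, without stimulation, as Thy1.1-, F4/80-, CD11b-, B220+ and CD93+ cells. Cultured marginal zone B cells (eMZB) were derived from enriched transitional B cells over 3 days with BAFF, a B cell survival factor, and DL1, a Notch ligand, and were sorted as Thy1.1-, F4/80-, CD11b-, B220+, CD21+ and CD1d+ cells. The 12 libraries, each from 2000 cells, formed the groups TrB_WT, TrB_KO, eMZB_WT and eMZB_KO, with 3 replicates each. The labels do not say whether replicates came from separate animals, so a p-value here measures library-to-library spread, part of which may be technical. Stage and culture changed together, so the comparison of eMZB with TrB cannot tell differentiation apart from the 3 days in culture.

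Cathepsins are made as inactive precursors, carried to endosomes and activated there by the low pH. Cathepsins D and E are aspartic proteases; cathepsins B, C, H, L, S and Z are cysteine proteases of the papain family; legumain cuts after asparagine and also processes some cathepsin precursors. In antigen-presenting cells, B cells among them, these enzymes cut antigens into peptides for MHC class II, and cathepsin S trims the invariant chain that is bound to class II.

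Levels are given as FPKM, reads per kilobase of gene and per M reads of the library, after division of each library by a median-of-ratios factor (scaled FPKM), and means carry the SD over 3 libraries. Changes are differences of log2(scaled FPKM + 1), which understate the change of low genes, with the standard error (SE) of limma. A gene is said to have risen or fallen where limma's Benjamini-Hochberg adjusted p over all 9807 genes was under 0.05. The 4 comparisons share libraries, so their values stand side by side and are not independent. Read totals were 7.24 to 19.35 M per library, and reads per library for single members ranged from 581 to 2784 for Ctsh and from 343 to 5606 for Ctse, but only from 17 to 124 for Ctsl. Fewer cells that express a gene and less RNA per cell cannot be told apart in these bulk samples.

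Some libraries stood apart. Kdm1a had scaled FPKM of 8.54, 7.93 and 3.47 in TrB_WT and of 3.35, 2.56 and 2.99 in TrB_KO. It had 7.53, 8.63 and 4.68 in eMZB_WT and 2.65, 2.53 and 2.66 in eMZB_KO. The libraries labelled TrB_WT replicate 3 and eMZB_WT replicate 3 thus lay nearer to the knockout libraries than to their own group, and Kdm1a did not pass the test (log2 change -0.87, adjusted p = 0.246 in TrB; -1.10, adjusted p = 0.148 in eMZB). TrB_KO replicate 3 had 61.6% of its reads in the listed genes, against 16.7% to 20.9% in the other TrB libraries. The B cell marker Cd79a was present throughout, at 662 to 941 scaled FPKM in TrB and 385 to 496 in eMZB, lower in every cultured library, and its part in the values between cell types was not tested. The summed transitional markers (5 of 8 listed) were 431 to 555 in TrB and 167 to 187 in eMZB, while the 11 marginal zone markers summed to 123 to 157 and 249.6 to 276. Single markers did not all follow these sums. In wild type, Hes1 (6.69 to 12.4 in TrB, 5.73 to 8.28 in eMZB), Cd1d1 and S1pr1 of the marginal zone list overlapped between cell types. Fcer2a of the transitional list did so too. Of 13 stromal markers, Cxcl12 and Acta2 were listed. Their sum was 0.0982 to 1.92 in TrB. It was 3.08, 8.70 and 29.9 in eMZB_WT and 4.15, 5.79 and 24.1 in eMZB_KO, highest in replicate 3 of both cultured groups. Acta2 was high only in eMZB_WT replicate 3 (14.7), and was 1.84 in eMZB_KO replicate 3. Of 19 macrophage and monocyte markers, 4 were listed (Adgre1, Itgam, Cd68, Ly6c2). Lyz2, Csf1r and the C1q genes, which define the lineage, were not among the listed genes. The macrophage sum ranged over 12.4 to 14.2 in TrB_WT and 51.1 to 64.6 in TrB_KO. In the cultured groups it ranged over 13.0 to 23.0 (WT) and 50.6 to 58.4 (KO). In the knockout groups most of it was Ly6c2 (46.8, 48.2 and 60.1 in TrB_KO; 48.1, 54.2 and 45.1 in eMZB_KO), a surface protein that lymphocytes can also carry. Itgam was higher in knockout without overlap in both cell types, at 0.777 to 1.02 in TrB_WT and 1.20 to 1.96 in TrB_KO, and at 0.180 to 0.376 (WT) and 0.991 to 1.25 (KO) after culture. Adgre1 was lower in knockout without overlap in TrB, at 2.05 to 2.43 in TrB_WT and 0.976 to 1.61 in TrB_KO. After culture it overlapped, at 0.521 to 0.882 (WT) and 0.520 to 0.951 (KO). Cd68 was 1.95 to 3.25 in TrB_WT and 1.38 to 2.48 in TrB_KO, and 1.62 to 2.36 (WT) and 2.22 to 3.57 (KO) after culture. Of 9 dendritic cell markers, Flt3 and Cd209a were listed, and their sum was 1.67 to 2.32 in eMZB_WT and 5.43 to 6.75 in eMZB_KO. That rise was in Flt3 alone (0.675 to 1.06 in eMZB_WT, 4.52 to 5.67 in eMZB_KO). Cd209a was 0.935 to 1.26 in eMZB_WT and 0.657 to 1.08 in eMZB_KO. In TrB the sum was lower in knockout, at 2.41 to 3.62 in TrB_WT and 0.430 to 2.38 in TrB_KO. Of the T cell and neutrophil markers 0 were listed. Plasma cell markers (7 of 8 listed) summed to 105 to 132 in TrB_WT and 131 to 178 in TrB_KO, and after culture to 181.5 to 183 (WT) and 153 to 172 (KO).

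Ctsz, Ctss and Ctsh made up most of the transcript level in every group. They stood at 95.1 ± 3.54, 83.6 ± 7.28 and 48.8 ± 2.67 scaled FPKM in TrB_WT, above 99.0%, 98.7% and 97.1% of all tested genes. The next 5 in TrB_WT lay close together: Ctsc at 19.5 ± 3.62, Lgmn at 15.4 ± 3.14, Ctsb at 14.3 ± 1.08, Ctse at 13.5 ± 0.868 and Ctsd at 12.7 ± 1.80, each overlapping its neighbour in this order. Ctsl was by far the lowest at 1.46 ± 0.664, above 10.3% of tested genes. FPKM is per length, so these levels can be set against each other, with the limit that Ctsb overlaps the listed gene Fdft1 and Ctsz the listed gene Nelfcd, and that the library kit does not mark strand.

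**Figure D1:**
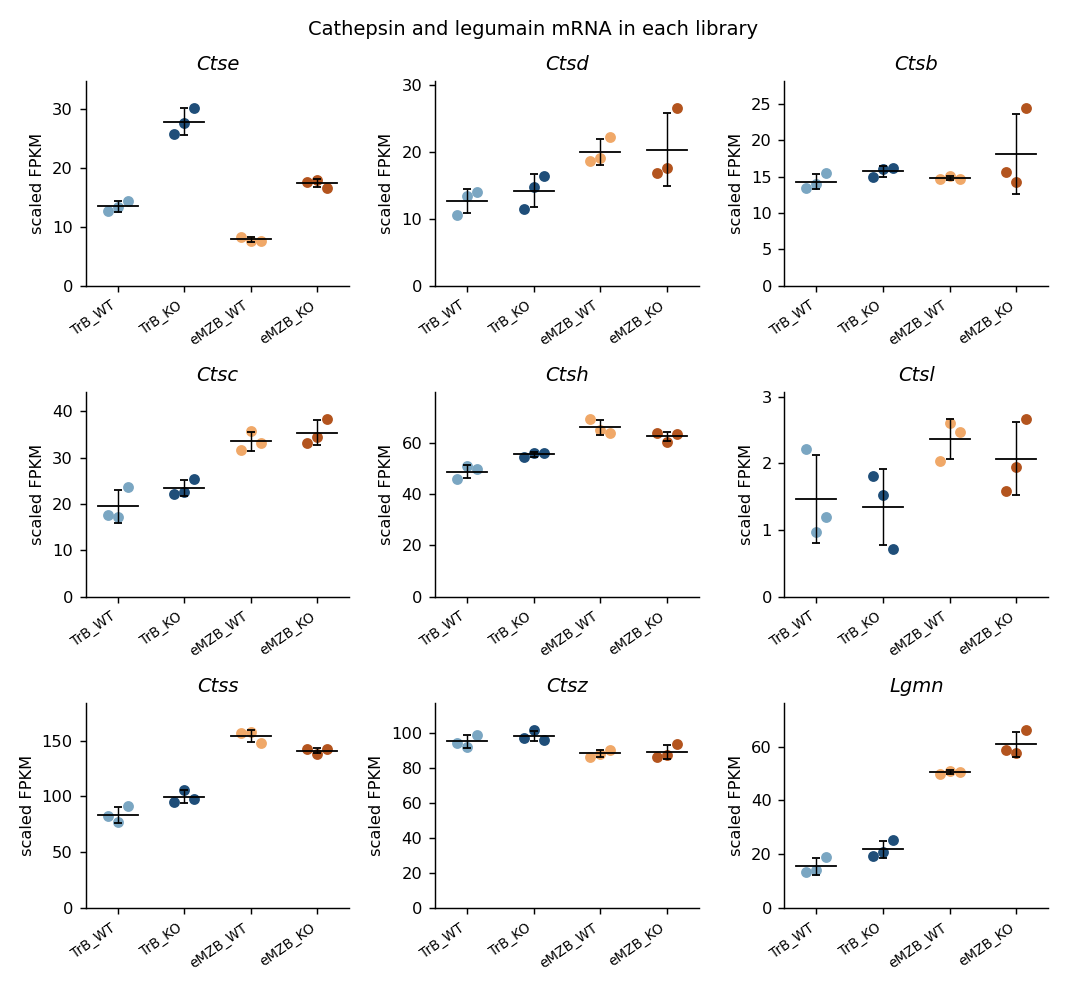
Scaled FPKM (vertical axes, each starting at 0) of the 9 genes in the 4 groups (horizontal axes). Each point is 1 library, in the order of replicate numbers, and the bar with whiskers is the mean ± SD of 3 libraries. Ctse, Ctsh, Ctss and Lgmn separate all 4 groups, Ctsd and Ctsc separate TrB from eMZB, and Ctsd and Ctsb have 1 high library in eMZB_KO.

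Ctse, the aspartic cathepsin E, is an endosomal enzyme of lymphoid and antigen-presenting cells. The gene (Entrez 13034) lies on chromosome 1 at 131638314 to 131675507 in mm10 (GRCm38). Its scaled FPKM was 12.7, 13.3 and 14.4 in TrB_WT and 25.7, 27.7 and 30.3 in TrB_KO. In the cultured cells it was 8.33, 7.63 and 7.67 in eMZB_WT and 17.7, 18.0 and 16.7 in eMZB_KO. All 4 groups were separate from one another, in the order eMZB_WT, TrB_WT, eMZB_KO, TrB_KO, and every knockout library lay above every wild-type library of either cell type.

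The library labelled TrB_WT replicate 3, with its low Kdm1a, kept a Ctse level close to the other 2 TrB_WT libraries, and the library labelled eMZB_WT replicate 3 did so among eMZB_WT. The mean was 2.07 times as high in TrB_KO as in TrB_WT and 2.22 times as high in eMZB_KO as in eMZB_WT. On the log2 scale the differences were 1.0 (SE 0.085) in TrB and 1.06 (SE 0.085) in eMZB. They differed from each other by 0.06 (SE 0.12). These 3 values carry no p and no interval, because the gene was chosen with this pattern in view. The TrB difference was 1.58 on the scale as deposited, on which the median gene also moved by 0.52. The macrophage sum, mostly through Ly6c2, and Itgam moved with genotype in both cell types as Ctse did. Adgre1 went the other way in TrB without overlap (2.05 to 2.43 in TrB_WT, 0.976 to 1.61 in TrB_KO) and overlapped after culture. Cd68 overlapped between genotypes in both cell types, with a lower mean in TrB_KO than in TrB_WT. The part of these markers in the Ctse values was not tested. Without both libraries labelled wild type with low Kdm1a the differences were 1.04 in TrB and 1.04 in eMZB, and without TrB_KO replicate 3 the TrB difference was 0.94.

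Between cell types Ctse went the other way to most members. It fell from TrB_WT to eMZB_WT, from 13.5 ± 0.868 to 7.87 ± 0.391 scaled FPKM (log2 change -0.70, SE 0.085, adjusted p = 6.91e-05). It fell from TrB_KO to eMZB_KO too, from 27.9 ± 2.28 to 17.4 ± 0.668 (log2 change -0.65, SE 0.085, adjusted p = 0.00014). Both calls rest on the scaling. As deposited, where the median gene was 0.67 higher in eMZB_WT than in TrB_WT and 0.23 higher in eMZB_KO than in TrB_KO, Ctse differed by 0.09 (adjusted p = 0.872) in wild type and by -0.36 (adjusted p = 0.857) in knockout.

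A measure that does not depend on a library's scale is a gene's share of the summed FPKM of the 9 members. The share of Ctse was 4.34%, 4.55% and 4.39% in TrB_WT and 7.54%, 7.56% and 8.31% in TrB_KO. It was 1.90%, 1.73% and 1.77% in eMZB_WT and 4.05%, 4.18% and 3.52% in eMZB_KO. The knockout shares lay above the wild-type shares within each cell type without overlap, and those of eMZB_KO lay just under those of TrB_WT. The summed scaled FPKM of the 9 genes itself was 304 ± 20.3 in TrB_WT and 358 ± 14.0 in TrB_KO, and in the cultured cells 437 ± 4.48 (WT) and 447 ± 24.5 (KO). Ctss held 27.5% of the sum in TrB_WT and 35.2% in eMZB_WT, Lgmn went from 5.04% to 11.6%, and Ctsz went from 31.3% to 20.2%. A share also moves when other members move, so a changed share need not be a changed level. Ctsz itself did not differ detectably in level between these groups (limma, log2 change -0.11, adjusted p = 0.252).

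**Figure D2:**
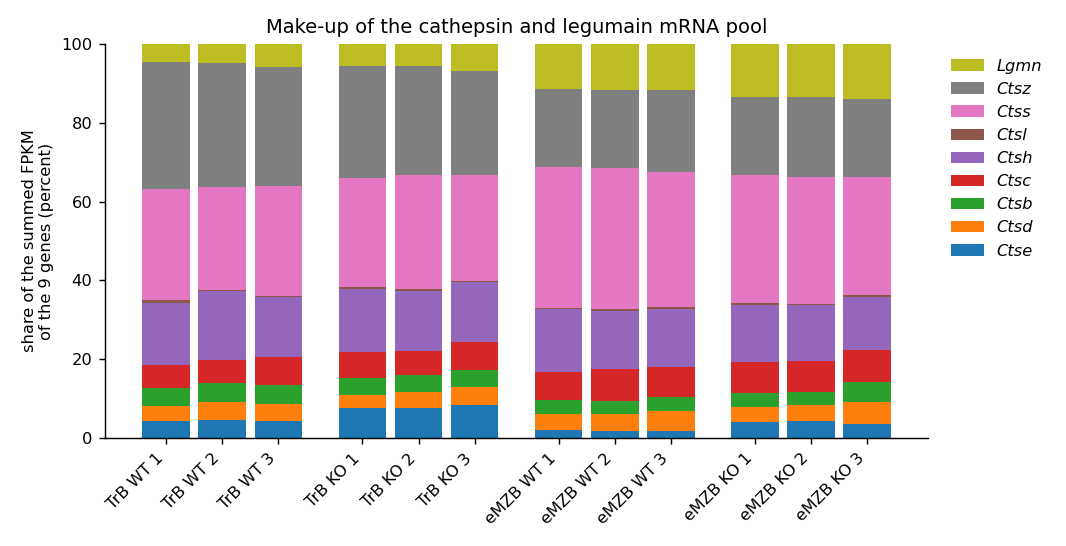
Share of each gene in the summed FPKM of the 9 genes (vertical axis, percent), 1 bar per library, grouped by cell type and genotype. The Ctse segment at the bottom is 7.54% to 8.31% in TrB_KO and 1.73% to 1.90% in eMZB_WT, and the Lgmn segment at the top is widest in eMZB_KO.

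Ctsd, the other aspartic protease of the set, is a main degradative enzyme of the lysosome (Entrez 13033, chromosome 7, 142375910 to 142387827). Its scaled FPKM was 10.6, 13.5 and 14.0 in TrB_WT and 18.7, 19.2 and 22.2 in eMZB_WT. It rose between them by 0.62 (SE 0.17, adjusted p = 0.0179), with no overlap, but the call was lost without TrB_WT replicate 1 (0.51, adjusted p = 0.0758), without eMZB_WT replicate 3 (0.55, adjusted p = 0.0694) and without both libraries labelled wild type with low Kdm1a (0.61, adjusted p = 0.0686). In the knockout it was 11.5, 14.8 and 16.4 in TrB and 16.8, 17.6 and 26.7 in eMZB. There the difference of 0.47 did not pass the test (adjusted p = 0.0603), while with the replicate number as a block it did (adjusted p = 0.00863). The high value belonged to eMZB_KO replicate 3, which also had the most Cxcl12 (22.3 scaled FPKM, against 2.61 and 4.09 in its group). Acta2, the other listed stromal marker, was 1.84 in that library, against 1.54 and 1.70 in its group. Without eMZB_KO replicate 3 and eMZB_WT replicate 3 (Cxcl12 15.2, Acta2 14.7) the difference was 0.28 (adjusted p = 0.257). The part of stromal RNA in this value was not tested. Ctsd did not differ detectably with LSD1 loss (0.15, 95% interval -0.23 to 0.52 in TrB; -0.0016, 95% interval -0.38 to 0.37 in eMZB).

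Lgmn, legumain, had the largest change between cell types of the 9 genes (Entrez 19141, chromosome 12, 102394082 to 102439728). Its scaled FPKM was 13.2, 14.1 and 19.0 in TrB_WT and 49.8, 51.1 and 50.8 in eMZB_WT. In the knockout it was 19.3, 20.7 and 25.2 in TrB and 58.6, 57.8 and 66.2 in eMZB. The lowest cultured library thus lay well above the highest TrB library in both genotypes. Lgmn rose by 1.67 (SE 0.13, adjusted p = 1.7e-06) in wild type and by 1.45 (SE 0.13, adjusted p = 5.69e-06) in knockout, 3.28 and 2.80 times as high in the means, and passed as deposited too (adjusted p = 7.98e-05 and 0.0116).

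The knockout groups were also separate from wild type for Lgmn in both cell types, by 0.48 in TrB (SE 0.13, unadjusted p = 0.00294, adjusted p = 0.204) and 0.26 in eMZB (SE 0.13, adjusted p = 0.979), and neither passed the test. The TrB value depended on single libraries, and with upper-quartile scaling the TrB libraries overlapped between genotypes. The library labelled TrB_WT replicate 3, at 19.0, lay just under the lowest knockout library at 19.3. Without it the difference was 0.63 (adjusted p = 0.0252), and without it and the library labelled eMZB_WT replicate 3 it was 0.62 (adjusted p = 0.0432). It was 0.37 without TrB_KO replicate 3 (adjusted p = 0.381) and 0.38 without TrB_WT replicate 1 (adjusted p = 0.455).

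The promoter windows of the RefSeq promoter table (GRCm38.p6), from 250 bases before to 50 after a start site, covered 6 of the 9 genes: Ctsc, Ctsd, Ctsl, Ctss, Ctsz and Lgmn, with 2 windows for Lgmn. They were searched on both strands for 4 short motifs. CACGTG, the E-box core of the CLEAR element bound by TFEB and its relatives, stood in the windows of Ctsd, Ctsl and Lgmn, 3 of 6 genes, and in those of 8.09% of all genes in the table and 12.3% of the tested ones. TCACGTG, the same core with the T that precedes it in the CLEAR element, overlaps it and stood in 2 of 6, Ctsd and Lgmn, against 4.29% and 7.52%. The stretches with the motif are shown because Ctsd and Lgmn were both called higher in eMZB_WT; capitals mark the motif and each reads 5′ to 3′ on the strand of the gene.
Ctsd (chr7:142387908-142387937, minus strand, motif 99 bases before the start site): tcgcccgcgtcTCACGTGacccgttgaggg
Lgmn (chr12:102439124-102439153, minus strand, motif 50 bases before the inner of 2 start sites): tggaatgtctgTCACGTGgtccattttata
Ctsl (chr13:64370739-64370768, minus strand, CACGTG 236 bases before the start site): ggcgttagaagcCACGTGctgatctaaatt
The Lgmn and Ctsl stretches lie inside the annotated genes, near their 5′ ends, because the start sites of those windows are inner ones, and the Ctsd stretch lies upstream of its gene. A second TCACGTG lay in the Ctsd window 245 bases before the start site, read on the other strand. GAGGAA, the core that the factor PU.1 binds, stood in 2 of 6 windows, Ctsc and Ctss, against 31.3% of all genes and 30.2% of tested ones. TGGGAA, the RBPJ core of Notch targets, stood in 0 of 6 windows, against 28.3% and 25.7%. A match is a description of these letters and not a binding site.

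Ctss, cathepsin S, is the cysteine protease that trims the invariant chain in B cells (Entrez 13040, chromosome 3, 95526786 to 95556405). TrB_WT libraries had 82.5, 76.9 and 91.4 scaled FPKM and eMZB_WT libraries 157, 158 and 148. In the knockout it was 94.8, 106 and 97.8 in TrB and 142, 138 and 143 in eMZB. Cultured cells were higher without overlap in both genotypes. Ctss rose by 0.88 in wild type (SE 0.078, adjusted p = 5.23e-06) and by 0.50 in knockout (SE 0.078, adjusted p = 0.000509), the latter lost as deposited (0.81, adjusted p = 0.317). LSD1 loss moved its libraries apart in opposite directions, higher in TrB (0.25, unadjusted p = 0.00679, adjusted p = 0.262) and lower in eMZB (-0.13, adjusted p = 0.9999), neither past the test. With upper-quartile scaling the TrB libraries overlapped between genotypes. The difference between both responses was -0.38 (SE 0.11, 95% interval -0.62 to -0.14, unadjusted p = 0.00467, adjusted p = 0.588) and did not pass either. The plasma cell marker sum had a higher median in knockout in TrB and was lower without overlap in eMZB, as Ctss and Ctsh were. It was also higher in eMZB_WT than in TrB_WT, though Slamf7 was lower there. Its largest part in every library was Mzb1. In TrB, Mzb1, Xbp1 and Slamf7 were higher in knockout without overlap. Jchain (0.405 to 24.2 in TrB_WT, 17.9 to 59.2 in TrB_KO), Prdm1, Sdc1 and Irf4 overlapped there. In eMZB, Jchain, Prdm1 and Sdc1 were lower in knockout without overlap, and the others overlapped. The part of these markers in the Ctss and Ctsh values was not tested. The stretch of the Ctss promoter with the PU.1 core is shown with that of Ctsc, since both rose between cell types in both genotypes. The motif was near its background share (2 of 6 windows, against 31.3% of all genes), and its part in the rise was not tested. Capitals mark GAGGAA or its reverse complement. Another match in the Ctsc window lay 196 bases before the start site, and another in the Ctss window began at the start site.
Ctss (chr3:95526610-95526639, plus strand, motif 164 bases before the start site): gacacagggttgGAGGAAaactttgtcctg
Ctsc (chr7:88277924-88277953, plus strand, motif 149 bases before the start site): tcactaactaacTTCCTCaggccacctcgt

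Ctsc, cathepsin C or dipeptidyl peptidase 1, removes dipeptides and activates granule serine proteases in other blood cells (Entrez 13032, chromosome 7, 88278024 to 88315861). Levels of Ctsc were 17.5, 17.3 and 23.7 scaled FPKM in TrB_WT and 31.8, 35.8 and 33.3 in eMZB_WT. In the knockout it was 22.2, 22.6 and 25.4 in TrB and 33.3, 34.4 and 38.4 in eMZB. The high TrB_WT value was that of the library labelled TrB_WT replicate 3, inside the range of TrB_KO. Ctsc rose by 0.77 in wild type (SE 0.12, adjusted p = 0.000397) and by 0.58 in knockout (SE 0.12, adjusted p = 0.00289), the latter lost as deposited (0.87, adjusted p = 0.369). With LSD1 loss it did not pass the test (0.26, adjusted p = 0.475 in TrB; 0.07, adjusted p = 0.9999 in eMZB). Without the library labelled TrB_WT replicate 3 the TrB difference was 0.40 (adjusted p = 0.0879).

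Ctsh, cathepsin H, is an aminopeptidase (Entrez 13036, chromosome 9, 90054267 to 90076095). Wild-type values were 45.8, 50.9 and 49.6 scaled FPKM in TrB_WT and 69.3, 64.8 and 63.8 in eMZB_WT. In the knockout it was 54.4, 56.0 and 56.1 in TrB and 63.6, 60.4 and 63.4 in eMZB. The 4 groups did not overlap, in the order TrB_WT, TrB_KO, eMZB_KO, eMZB_WT, so that the cell types stood closer together in the knockout. With upper-quartile scaling, wild type and knockout overlapped in both cell types. Ctsh rose by 0.43 in wild type (SE 0.069, adjusted p = 0.000655), while the difference of 0.17 in knockout did not pass (adjusted p = 0.0954). The difference of both, which is the interaction, was -0.26 (SE 0.098, 95% interval -0.47 to -0.05, unadjusted p = 0.0201, adjusted p = 0.69) and did not pass.

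Ctsz, cathepsin Z, is a carboxypeptidase (Entrez 64138, chromosome 2, 174427494 to 174439039) and was the steadiest of the 9. TrB_WT libraries had 94.2, 92.0 and 99.0 scaled FPKM and TrB_KO libraries 96.9, 102 and 96.0. After culture the values were 86.4, 87.8 and 90.3 in wild type and 86.1, 87.4 and 93.7 in knockout. The cultured libraries lay slightly below the TrB libraries within each genotype, by -0.11 (95% interval -0.25 to 0.04, adjusted p = 0.252) in wild type and -0.14 (95% interval -0.28 to 0.0045, adjusted p = 0.145) in knockout. As deposited both differences were above 0 (0.75 and 0.17), so their direction depends on the scaling.

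Ctsb, cathepsin B, is an abundant lysosomal endopeptidase in many tissues (Entrez 13030, chromosome 14, 63122462 to 63145923). Levels were 13.5, 13.9 and 15.5 scaled FPKM in TrB_WT and 14.9, 16.0 and 16.2 in TrB_KO. After culture they were 14.6, 15.1 and 14.6 in wild type and 15.6, 14.3 and 24.5 in knockout. All neighbouring groups overlapped, and 1 library, eMZB_KO replicate 3, was above all the rest. Ctsb passed no test: it differed by 0.05 (adjusted p = 0.848) between cell types in wild type and by 0.16 (adjusted p = 0.483) in knockout. Its difference with LSD1 loss was 0.13 (adjusted p = 0.802) in TrB and 0.24 (adjusted p = 0.9999) in eMZB, and the last was 0.012 without both cultured libraries with the most Cxcl12.

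Ctsl, cathepsin L, cleaves the invariant chain in thymic epithelium (Entrez 13039, chromosome 13, 64361890 to 64370772). It was low in these B cells, with 2.22, 0.975 and 1.20 scaled FPKM in TrB_WT and 1.81, 1.53 and 0.714 in TrB_KO. After culture it had 2.03, 2.60 and 2.47 in wild type and 1.59, 1.95 and 2.67 in knockout. The groups overlapped, and at 17 to 43 reads per TrB library no difference was detectable (0.48, adjusted p = 0.129 between cell types in wild type; 0.40, adjusted p = 0.212 in knockout). It passed in wild type as deposited (0.99, adjusted p = 0.0175) and without TrB_WT replicate 1 (0.70, adjusted p = 0.0427).

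Over the 9 genes, 5 rose and 1 fell from TrB_WT to eMZB_WT, where 27.4% of all tested genes were called, 14.7% higher and 12.8% lower. From TrB_KO to eMZB_KO, 3 rose and 1 fell, where 27.3% of all tested genes were called, 14.1% higher and 13.2% lower. By the libraries alone, 5 members were higher and 2 lower without overlap in each genotype, against 21.7% and 23.4% of all genes in wild type and 22.6% and 21.3% in knockout. The median log2 change was 0.48 over the 9 genes and -0.0026 over all tested genes in wild type, and 0.40 and -0.01 in knockout. As deposited, 6 were called in wild type (Ctsl in, Ctse out) and 1 in knockout (Lgmn). Without both cultured libraries with the most Cxcl12 the counts were 6 and 4, without both libraries labelled wild type with low Kdm1a 5 and 4, and without TrB_KO replicate 3 they were 6 and 5.

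With LSD1 loss, 0 of the other 8 genes (without Ctse) were called by limma in TrB, where 0.5% of all tested genes were, and 0 in eMZB, where 0.398% were. At an unadjusted p under 0.05 the counts were 4 (Ctsc, Ctsh, Ctss and Lgmn, all higher) against 9.9% of all genes in TrB, and 0 against 5.35% in eMZB. limma-voom on read counts recovered from the FPKM values also called 0 in both. In TrB, 3 of the 8 (Ctsh, Ctss, Lgmn) were higher in knockout without overlap, as were 6.14% of all genes. In eMZB, Lgmn was higher without overlap and Ctsh and Ctss were lower, as were 9.05% and 9.3% of all genes. With upper-quartile scaling Ctsh, Ctss and Lgmn overlapped between genotypes in TrB, and Ctsh did so in eMZB too. The median log2 change of the 8 was 0.17 in TrB and 0.01 in eMZB, against 0.01 and -0.0041 over all genes. The interaction called 0 of the 8, against 0.0102% of all genes, with 2 at an unadjusted p under 0.05 (6.8% of all genes) and 0 by limma-voom.

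**Figure D3:**
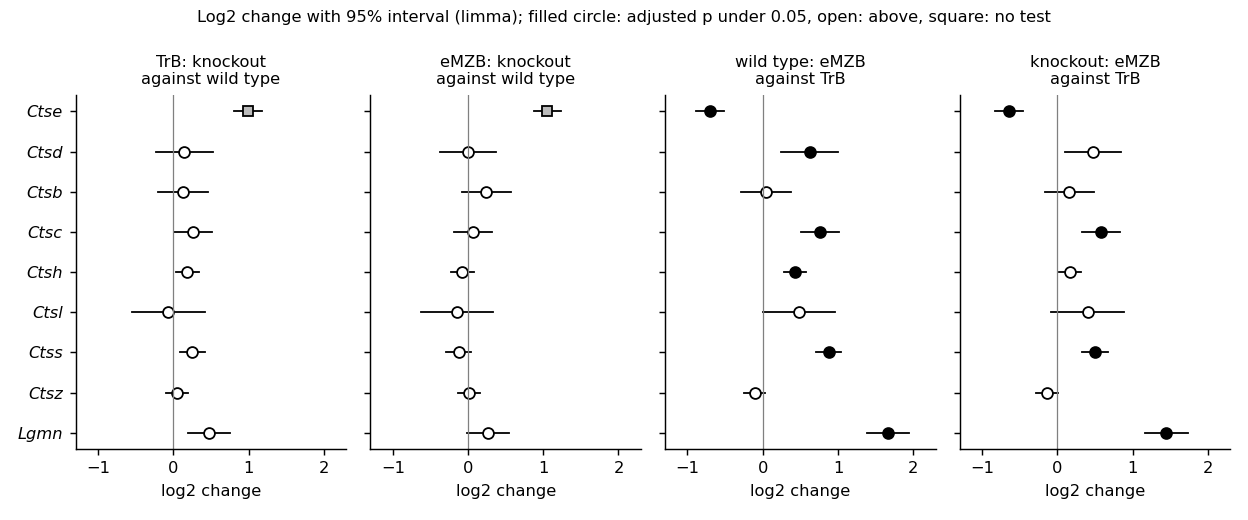
Log2 change (horizontal axes) of the 9 genes in 4 comparisons, with 95% intervals from limma. Filled circles have an adjusted p under 0.05, open circles do not, and grey squares (Ctse with LSD1 loss) carry no test. The intervals of the squares are not to be read as a test, since Ctse was chosen with these values in view. Ctse lies near 1 in both left panels and below 0 in both right panels, where Lgmn is farthest above 0.

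No other gene of the set had a profile near that of Ctse. The likeness of 2 genes was measured as the root mean square (RMS) difference of log2(scaled FPKM + 1) over the 12 libraries. Each gene was first centred on its own mean. Candidates were 4973 genes other than Ctse that reached a mean of 5 scaled FPKM in some group. Predicted or clone-named genes, pseudogenes, immunoglobulin genes and IDs without a symbol had been left out of them. The median RMS difference from Ctse was 0.647. The closest member was Ctsz at 0.576, at rank 992, and Lgmn was among the farthest at 1.17, at rank 4879.

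The most similar gene was Rapgef3, a cAMP-activated exchange factor for Rap GTPases, at an RMS difference of 0.209. Scaled FPKM of Rapgef3 was 1.20, 1.64 and 1.19 in TrB_WT and 4.85, 5.06 and 5.60 in TrB_KO. After culture it was 0.555, 0.562 and 0.838 in wild type and 2.01, 1.79 and 1.86 in knockout. Reads of an antisense gene cannot be told from its own. Csrp1, a LIM domain protein of the cytoskeleton, followed at 0.226. Its mean was 9.05 in TrB_WT and 14.6 in TrB_KO, and after culture 5.57 (WT) and 9.85 (KO). Cxcr4, the receptor for CXCL12, stood at 0.241 with means of 10.7, 17.9, 7.41 and 12.004 in that order. Ehd2, a membrane-remodelling ATPase, stood at 0.252, and Scimp, a transmembrane adaptor of MHC class II signalling, at 0.259. Rapgef3 and Ehd2 reached the mean of 5 through TrB_KO alone, the group where Ctse is highest, so that filter helped to choose them. Csrp1 passed it in every group. These genes were picked for their likeness, and nothing about shared control follows from it.

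**Figure D4:**
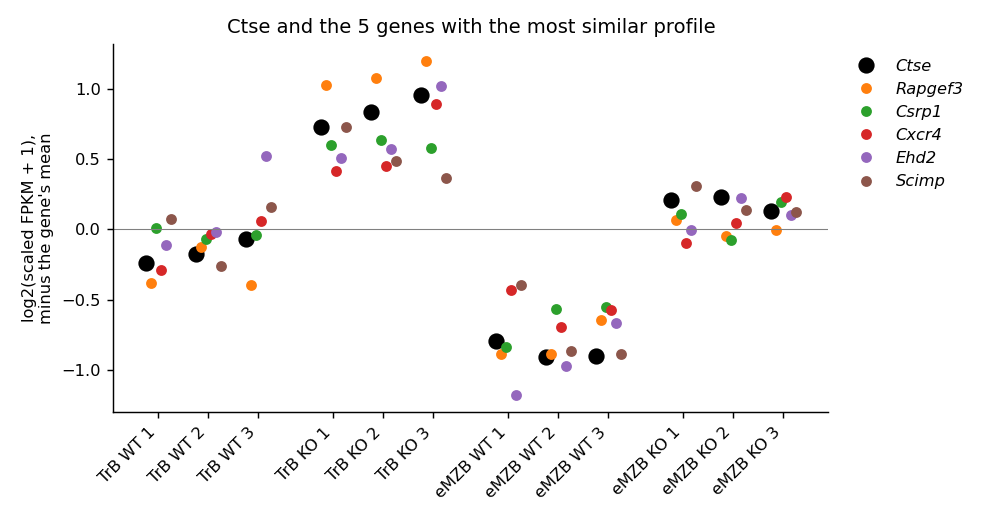
Log2(scaled FPKM + 1) minus the gene's own mean (vertical axis) in each of the 12 libraries (horizontal axis) for Ctse (large black points) and the 5 genes with the most similar profile. All 6 are highest in TrB_KO and lowest in eMZB_WT by group mean.

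The tested genes nearest to Ctse were looked at after its values were seen. Of 13 annotated genes within 250 kb, 9 of them protein coding, 4 were tested: Srgap2, Slc41a1, Rab29 and Nucks1, at 111, 153, 192 and 235 kb. Of these 4, 0 were called with LSD1 loss in either cell type. Their log2 changes were -0.07, 0.34, 0.25 and -0.12 in TrB and 0.17, 0.17, 0.22 and -0.07 in eMZB, and their differences from Ctse were not tested.

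Other proteases and their inhibitors did not follow 1 direction between cell types. With LSD1 loss, 0 members were called in either cell type in any of the lists below, where 0.5% (TrB) and 0.398% (eMZB) of all genes were called, so that few or no calls are the background here. Between cell types the background for each list is 14.7% of all genes higher and 12.8% lower in wild type, and 14.1% higher and 13.2% lower in knockout. Of 14 other cathepsins, 7 were listed, and only Cts8, one of the placental cathepsins, passed in wild type, from 2.34 ± 0.404 to 0.286 ± 0.114 scaled FPKM (-1.37, adjusted p = 0.00256). The placental cathepsins are close copies of one another, so their reads may be split between them, and the value is uncertain. Ctsa, the protective protein of lysosomal glycosidases, had 24.9 ± 1.79 in TrB_WT and 29.6 ± 3.00 in eMZB_WT (adjusted p = 0.081). Of 12 tested other lysosomal and endosomal proteases, 2 rose and 3 fell in both genotypes, against those shares of all genes. Dpp7, a dipeptidyl peptidase, rose from 5.40 ± 0.697 to 12.3 ± 0.950 in wild type (log2 change 1.06, adjusted p = 0.000166). Napsa, napsin A, an aspartic protease as Ctse and Ctsd are, fell from 87.0 ± 3.95 to 54.9 ± 2.29 (-0.65, adjusted p = 6.24e-05). The 3 that fell in wild type (Napsa, Scpep1, Psen2) were above 0 as deposited.

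Of 5 tested inhibitors of cysteine and related proteases, 3 fell in wild type and 3 fell and 1 rose in knockout. Cst3, cystatin C, an inhibitor of papain-family cathepsins, fell from 62.6 ± 4.25 to 35.3 ± 2.58 in wild type (-0.81, adjusted p = 0.000466) and from 70.3 ± 12.8 to 41.9 ± 3.77 in knockout (-0.72, adjusted p = 0.00111). Cstb, the other cystatin tested, went the other way without passing (0.46, adjusted p = 0.126 in wild type and 0.54, adjusted p = 0.0777 in knockout). Serpinb1a, an inhibitor of neutrophil serine proteases, fell from 64.7 ± 5.39 to 38.3 ± 1.85 (-0.74, adjusted p = 7.37e-05) in wild type. Serpinb6a fell as well (-0.76, adjusted p = 0.00243). As deposited 1 of these 3 wild-type falls kept its sign, and all 3 did so in knockout.

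Among the 16 tested genes of MHC class II and its processing, 8 rose and 1 fell in wild type, against 14.7% and 12.8% of all genes, and 3 rose and 2 fell in knockout, near the 14.1% and 13.2% of all genes. H2-Aa, a class II chain, rose from 277 ± 24.4 to 538 ± 58.5 in wild type (0.95, adjusted p = 1.12e-05) and H2-Eb1 from 145 ± 4.64 to 273 ± 13.6 (0.91, adjusted p = 1.36e-06). Ifi30, the lysosomal thiol reductase GILT that opens disulfide bonds of antigens, fell from 146 ± 10.8 to 48.9 ± 1.69 (-1.55, adjusted p = 9.4e-07) in wild type and from 129 ± 20.4 to 49.3 ± 3.35 (-1.36, adjusted p = 2.61e-06) in knockout. Cd74, the invariant chain that Ctss trims, had 2067 ± 147 in TrB_WT and 1877 ± 371 in eMZB_WT (adjusted p = 0.46). All 9 wild-type calls of this list kept their sign as deposited.

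Of 38 tested lysosomal hydrolases and membrane proteins, 11 rose and 5 fell in wild type (14.7% and 12.8% of all genes), and 8 rose and 5 fell in knockout (14.1% and 13.2%). The falls were near the background in both genotypes. Hexa, a lysosomal glycosidase gene, rose from 11.7 ± 0.0296 to 26.1 ± 1.89 in wild type (1.09, adjusted p = 1.52e-06), while Acp5, the tartrate-resistant acid phosphatase, fell from 44.1 ± 3.52 to 25.9 ± 0.655 (-0.74, adjusted p = 1.95e-05). None of the 5 wild-type falls kept its sign as deposited. Of 16 V-ATPase subunits, which acidify the lysosome, 6 rose and 0 fell in wild type, and 1 rose and 2 fell in knockout, where the falls were near the background. Of 16 genes that sort enzymes to lysosomes, 3 rose and 4 fell in both genotypes, against the same shares of all genes, and 0 of the 4 wild-type falls kept their sign as deposited. M6pr, the cation-dependent mannose 6-phosphate receptor, had 21.4 ± 2.69 in TrB_WT and 25.2 ± 2.56 in eMZB_WT (adjusted p = 0.121, outside the rule for named genes). Of 14 genes of TFEB-type control, 3 rose and 2 fell in wild type, and 1 rose and 2 fell in knockout, against the same shares, and 0 of the 2 wild-type falls kept their sign as deposited. Tfeb itself fell from 16.6 ± 3.82 to 10.3 ± 0.0396 in wild type (-0.61, adjusted p = 0.0137) and from 17.3 ± 2.74 to 10.1 ± 1.83 in knockout (-0.72, adjusted p = 0.0055), the first not below 0 as deposited. Of 12 endosomal nucleic acid sensing genes, whose receptors cathepsins cut, 2 rose and 3 fell in wild type, and 1 rose and 3 fell in knockout, against the same shares of all genes, and 1 of the 3 wild-type falls kept its sign as deposited. Tlr7 rose from 3.19 ± 0.668 to 10.2 ± 0.325 in wild type (1.43, adjusted p = 1e-05) and from 5.04 ± 1.02 to 10.97 ± 0.365 in knockout (log2 change 1.0, adjusted p = 0.000192).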

How the data were processed

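FPKM values were deposited by the authors as 1 table of 9842 genes with Entrez IDs. Per the labels' protocols, SMART-Seq v4 gave the cDNA and Nextera XT, which does not mark strand, the libraries. STAR and mm10 are named in the submitters' processing notes; for the counting program, annotation and read total, nothing was given in the sources used here. Of the IDs, 9833 matched a RefSeq symbol (GRCm38.p6) and 9 did not.

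FPKM sums differed between libraries (60647 to 212404), so values were divided by median-of-ratios factors (0.613 to 2.14). Genes with at least 1 scaled FPKM in 3 libraries were fitted with limma (3.58.1, R 4.3.3; lmFit, eBayes with trend) on log2(scaled FPKM + 1), with all 12 libraries in 4 group means and 8 residual degrees of freedom. The fit was tested on simulated data. Adjusted p is Benjamini-Hochberg over all tested genes, with a threshold of 0.05. Whole reads were recovered for all 9842 genes within 0.02 reads, and served for depth and for limma-voom. No replicates were duplicates: chi-square per gene averaged 2.57 to 18.6. Read numbers bound counting error only, since PCR reads are not independent molecules.

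What a shared replicate number stands for is not in the labels. Library deviations from their group mean correlated over 0.1 for every number only between TrB_KO and eMZB_KO (0.161, 0.106 and 0.292). The main fit did not pair libraries by number. The number as a block of all 12 libraries was an alternative only.

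Alternatives were the scale, pseudocount, filter, test, replicate block and leaving out libraries. The members, gene lists and motifs were chosen with earlier results of these data known. Named were all members, Kdm1a, up to 4 genes per list with the smallest adjusted p or called, and the 5 genes most like Ctse. Python 3.11.15, numpy 2.4.6, pandas 2.3.3 and matplotlib 3.10.9 were used.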

Additional observations from a re-analysis of the deposited data

Results flagged for a closer look

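Ctsh and Ctss stood out because LSD1 loss separated their libraries in opposite directions in the 2 cell types on the median-of-ratios scale. All 3 TrB_KO libraries were above all 3 TrB_WT libraries, and all 3 eMZB_KO libraries were below all 3 eMZB_WT libraries. Such an arrangement was found in 79 of 9807 tested genes, or 0.806%, counted on that scale alone. The Ctsh gap in eMZB was narrow, with 63.62 in eMZB_KO replicate 1 against 63.79 in eMZB_WT replicate 3. With upper-quartile scaling the genotypes overlapped for Ctsh in both cell types and for Ctss in TrB. For Ctsh the response in eMZB minus that in TrB was -0.26 on the log2 scale (limma, unadjusted p = 0.0201, adjusted p = 0.69). For Ctss it was -0.38 (unadjusted p = 0.00467, adjusted p = 0.588). Neither difference passed the test over all genes. Plasma cell markers (7 of 8 listed) had a higher median sum in TrB_KO than in TrB_WT (167 against 117). They had a lower one in eMZB_KO than in eMZB_WT (158 against 182). Single markers did not all follow the sum. Jchain, Prdm1, Sdc1 and Irf4 overlapped between genotypes in TrB, and Mzb1, Irf4, Xbp1 and Slamf7 in eMZB. The part of these markers in the Ctsh and Ctss values was not tested.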

How the results depend on the processing

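Counts of called members kept within 1.5 times of their value for the comparison of cell types in wild type under all alternatives run (5 or 6 of 9), and stayed at 0 for LSD1 loss in eMZB and for the interaction. For LSD1 loss in TrB the count of 0 became 1 (Lgmn) without both libraries labelled wild type with low Kdm1a, and lay between 0 and 1 when 1 library at a time was left out. For the comparison in knockout, 4 members became 1 as deposited and 4 to 5 with 1 library left out. Ctse between cell types in wild type reversed to 0.089 as deposited, and its difference between the LSD1 responses, 0.06, was -0.45 there. Over its alternatives, Ctse with LSD1 loss ran from 0.93 to 1.58 in TrB and from 1.03 to 1.14 in eMZB. Ctsd in knockout passed with upper-quartile scaling (adjusted p = 0.0384), a filter at 5 scaled FPKM (0.0413), without TrB_KO replicate 3 (0.0332) and without eMZB_KO replicate 1 (0.047), and Ctsl in knockout by limma-voom (0.0391); the cause was not tested.

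Over all genes, LSD1 loss in TrB called 49 (38 higher, 11 lower), against 19 as deposited (11 and 8), 21 by limma-voom, 12 with the libraries of the contrast alone, 30 without both cultured libraries with the most Cxcl12 and 19 without TrB_WT replicate 1. LSD1 loss in eMZB called 39, against 15 as deposited, 71 with its libraries alone, 23 without the low Kdm1a libraries, 7 without both with the most Cxcl12 (an alternative chosen after seeing the data) and 14 to 51 with 1 library left out. The cell types in wild type gave 1440 higher and 1252 lower, and 1779 and 117 as deposited. In knockout, 2678 (1382 higher, 1296 lower) became 460 as deposited (387 and 73) and 1739 without both with the most Cxcl12. The interaction called 1, and 0 to 15 over its alternatives. The replicate number as a block was applied to all 12 libraries, and the labels do not say what a number shares. The members called were then 0 for LSD1 loss in TrB, 0 in eMZB and 0 for the interaction. Between cell types they were 6 in wild type and 5 in knockout (Ctsd added). No other call of a member changed. The interaction needs all groups, so it has no value with the libraries of one contrast alone, and Ctsl has none under the filter at 5 scaled FPKM. Depth limits Ctsl most.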
